A study of Homo sapiens with 32 samples.

Results

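A set of 34 genes that encode core factors of the spliceosome was examined in a pooled CRISPR-knockout screen for altered protein kinase A (PKA) activity. The genes make up the U1 and U2 small nuclear ribonucleoprotein particles (snRNPs), the proteins that recognize the branch site and the end of the intron, the SF3A and SF3B complexes, the PRP19 complex with its partners, and the helicases and second-step factors that drive splicing forward. They were chosen by gene symbol from known complex membership, with earlier results of these data known, and every one was found in the deposited table. They are 34 of 18638 targeted genes and are covered by 136 of 74987 single guide RNAs (sgRNAs), 4 for each gene.

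RKO cells, an established human colon carcinoma line, stably expressed Cas9 and the recorder Kinprola PKA, a split HaloTag fused to EGFP that is covalently labeled by the fluorescent substrate CPY-CA when PKA phosphorylates it. After transduction with the HD CRISPR sublibrary A and puromycin selection, the cells were labeled on the sixth day and sorted by the ratio of CPY-CA to EGFP fluorescence into a high (around 25%), a medium (around 50%) and a low (around 25%) population. The labels give 2 replicates of the screen, with the numbers 2 and 3, which are called screens 2 and 3 here, and each also has a day 0 library (T0). Every group shares the same line, transgenes and library, the labels use the word basal for the medium population, and the sorted groups were set apart by the labeling ratio. An sgRNA that is more frequent in high than in low therefore marks cells in which the targeted knockout went with a higher labeling ratio, and the ratio was read once, with no measure of the splicing of any transcript.

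The spliceosome removes introns from precursor messenger RNA. U1 snRNP pairs with the start of the intron, SF1 and U2AF mark the branch site and the polypyrimidine tract at the other end, and U2 snRNP with SF3A and SF3B then takes over the branch site. After the tri-snRNP has joined, the PRP19 complex stabilizes the catalytic core, and DEAH-box helicases remodel it through branching, exon ligation, release of the messenger RNA and disassembly. Most dividing human cells need these factors to grow.

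The 8 libraries held 23369720 to 31777138 reads, with medians of 260 to 356 reads per sgRNA. Reads were scaled to the mean library total, and the values of a gene given below are scaled reads summed over its 4 sgRNAs. A log2 fold change of a gene was computed for each sgRNA within a screen after adding 1 read, averaged over the sgRNAs and then over the screens, and tested with limma over all genes. The error of a log2 fold change is its limma standard error (SE) over 2 screens. This SE is moderated toward a spread shared by all genes tested. It is therefore smaller than a gene's own 2 values would give where the screens lie far apart, as for SF3A3 and DHX8. Where the screens nearly coincide it is larger. Counting error comes on top for sgRNAs with few reads, and 18 of the 136 sgRNAs had a mean below 50 scaled reads over the 8 libraries.

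The question of the high versus low comparison was which knockouts moved cells toward high or low Kinprola PKA labeling. The sgRNAs of the splicing factors were more frequent in the high population. Of the 34 genes, 30 were higher in high than in low at an adjusted p below 0.05 and 0 were lower, while 5.25% of all genes tested were higher and 2.73% were lower. Counted at an unadjusted p below 0.05, limma placed 32 of the genes higher and 0 lower, against 9.59% and 8.04% of all genes. edgeR on reads summed over sgRNAs called 27 higher and 0 lower, against 6.84% and 5% of all genes. The median log2 fold change of the 34 genes was 1.34, against -0.01 for all genes, and single genes ranged from 0.09 to 2.27. In summed reads, both high libraries exceeded both low libraries for 30 of the 34 genes, which held for 22.4% of all genes.

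**Figure D1:**
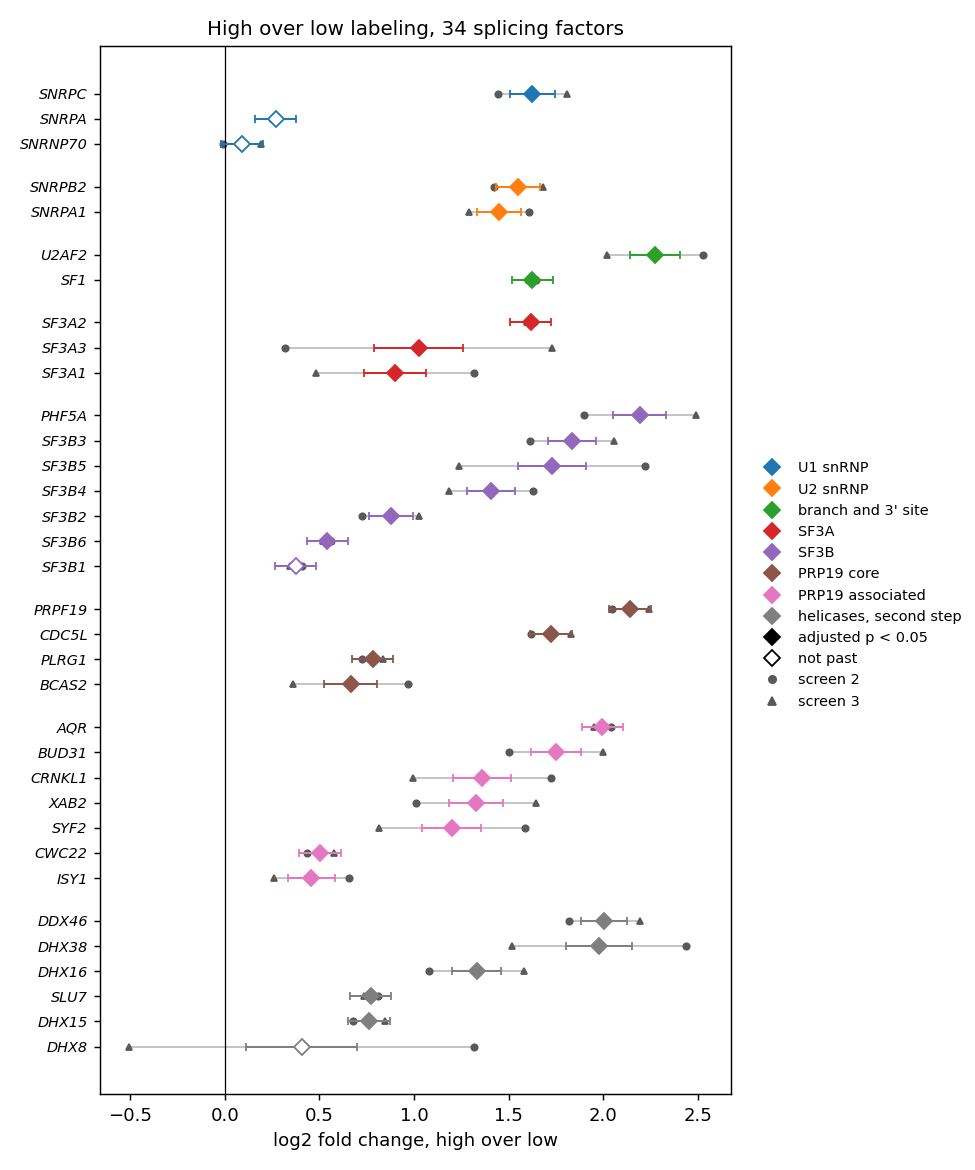
Log2 fold change of high over low for the 34 splicing factors, grouped by role. Diamonds with bars are the mean of both screens and its limma SE, filled where the adjusted p was below 0.05, and gray circles and triangles are screens 2 and 3. All 34 means lie above 0, and DHX8 is the gene whose screens lie farthest apart, on either side of 0.

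The U1 snRNP proteins differed among themselves. SNRPC, which stabilizes the pairing of U1 with the start of the intron, had 1388 and 1197 scaled reads in the high libraries of screens 2 and 3, 863 and 748 in the medium libraries, 676 and 527 in the low libraries and 1549 and 1639 at T0. Its high libraries exceeded its medium libraries and these exceeded the low ones in both screens (log2 fold change 1.62, SE 0.12, n = 2 screens, adjusted p = 3.00e-06). SNRNP70, which binds the first stem-loop of U1 RNA, had 1050.3 and 1067 scaled reads in high, 823 and 722 in medium, 1034 and 796 in low and 1821 and 2012 at T0. The medium library was the lowest sorted one in each screen, and the low library of screen 2 nearly reached the high libraries (log2 fold change 0.09, SE 0.11, n = 2 screens, adjusted p = 0.772). SNRNP70 did not pass the test, and its screens gave -0.01 and 0.19. SNRPA, which binds another stem-loop of U1 RNA, had 1798 and 1575 scaled reads in high, 1462 and 1725 in medium, 1429 and 1272 in low and 1538 and 1746 at T0. Both high libraries lay above both low libraries, by 1.26 and 1.24 times in screens 2 and 3, but the gene did not pass (log2 fold change 0.27, SE 0.11, n = 2 screens, adjusted p = 0.206). edgeR on reads summed over sgRNAs called SNRPA higher, with an adjusted p of 0.00514, and this was the only 1 of 16 alternatives in which SNRPA passed, the adjusted p reaching 0.796.

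Both U2 snRNP proteins were higher in high than in low. SNRPB2, which binds U2 RNA together with SNRPA1, had 1253 and 1294 scaled reads in the high libraries of screens 2 and 3, 896 and 785 in the medium libraries, 635 and 545 in the low libraries and 1475 and 1493 at T0. The order was low, medium, high in both screens, and the high libraries remained below T0 (log2 fold change 1.55, SE 0.11, n = 2 screens, adjusted p = 2.91e-06). SNRPA1 started from fewer reads, with 218 and 229 scaled reads in high, 96.5 and 83.2 in medium, 73.7 and 101 in low and 656 and 637 at T0. Its high libraries stood apart from low and medium, while low and medium overlapped (log2 fold change 1.45, SE 0.12, n = 2 screens, adjusted p = 6.12e-06).

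U2AF2 had the largest change of the 34 genes. The protein is the large subunit of U2AF and binds the polypyrimidine tract, and the gene lies at chr19:55654146-55674716 on the plus strand in GRCh38 (GENCODE 44). U2AF2 had 1304 and 1070.1 scaled reads in the high libraries of screens 2 and 3, 394 and 450.1 in the medium libraries, 255 and 269 in the low libraries and 1331 and 1279 at T0. Its high libraries were 5.11 and 3.99 times its low libraries and came close to T0, while the low libraries were far below T0 (log2 fold change 2.27, SE 0.13, n = 2 screens, adjusted p = 4.62e-07). SF1, the branch point binding protein, had 655 and 739 scaled reads in high, 393 and 318 in medium, 216 and 206 in low and 701 and 604 at T0. In screen 3 its high library was above both T0 libraries (log2 fold change 1.62, SE 0.11, n = 2 screens, adjusted p = 1.31e-06).

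All 3 SF3A genes, which encode the complex that joins U2 snRNP to SF3B, passed the test, but they were not equally firm. SF3A2 had 244 and 275 scaled reads in the high libraries of screens 2 and 3, 124 and 145 in the medium libraries, 79 and 93.2 in the low libraries and 1333 and 1199 at T0. Populations followed the order low, medium, high in both screens, far below T0 (log2 fold change 1.61, SE 0.11, n = 2 screens, adjusted p = 1.36e-06). SF3A1 had 553 and 365 scaled reads in high, 389 and 323 in medium, 264 and 230.2 in low and 1273 and 1268 at T0. High exceeded low in both screens, and screens 2 and 3 gave log2 fold changes of 1.32 and 0.48 (log2 fold change 0.90, SE 0.16, n = 2 screens, adjusted p = 0.00396). SF3A3 had 99.4 and 111 scaled reads in high, 69.2 and 105 in medium, 104 and 84.4 in low and 639.7 and 507 at T0. In summed reads its populations overlapped, and high was 0.959 and 1.32 times low, although the mean over sgRNAs passed the test (log2 fold change 1.02, SE 0.24, n = 2 screens, adjusted p = 0.018). That mean rests on an sgRNA with 0 reads in the low library of screen 3 and 43.8 scaled reads in the high library, and without that low library the log2 fold change was 0.0029 with an adjusted p of 0.998. edgeR on summed reads gave 0.16 with an adjusted p of 0.871.

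SF3B holds the branch site helix, and 6 of its 7 genes were higher in high than in low. PHF5A, a small zinc-binding subunit next to the branch site pocket, lies at chr22:41459717-41468692 on the minus strand and had 583 and 499 scaled reads in the high libraries of screens 2 and 3, 329.7 and 290.1 in the medium libraries, 185 and 215 in the low libraries and 1170.5 and 1264 at T0. Each high library was above every medium and low library (log2 fold change 2.19, SE 0.14, n = 2 screens, adjusted p = 9.49e-07). The sgRNA of PHF5A numbered 4 had 0 reads in the low library of screen 2. In summed reads high was 3.16 and 2.32 times low, and edgeR on these reads gave a log2 fold change of 1.44. SF3B3, a large beta-propeller protein, followed with 1.83 and SF3B5, a small subunit, with 1.73. SF3B4, an RNA-binding subunit, gave 1.41, SF3B2, which binds SF3B4, gave 0.88, and SF3B6, which sits near the branch site adenosine, gave 0.54. The adjusted p-values of these 5 genes ran from 1.69e-06 to 0.00708. SF3B1, the scaffold of the complex and a gene recurrently mutated in myeloid disease, had 216 and 265 scaled reads in the high libraries of screens 2 and 3, 291 and 339 in the medium libraries, 157 and 225 in the low libraries and 565 and 634 at T0. Its medium libraries were the highest of the sorted ones in both screens, and high in screen 2 lay just below low in screen 3 (log2 fold change 0.38, SE 0.11, n = 2 screens, adjusted p = 0.0605). SF3B1 did not pass the test, and it passed in 3 of 16 alternatives, at an adjusted p of 0.0238 at the least.

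The core of the PRP19 complex, with all 4 genes higher in high than in low, spanned a wide range. PRPF19, the ubiquitin ligase after which the complex is named, lies at chr11:60890547-60906585 on the minus strand and had 519 and 314 scaled reads in the high libraries of screens 2 and 3, 229 and 189 in the medium libraries, 137 and 124 in the low libraries and 1008 and 1078 at T0. High exceeded medium and medium exceeded low in each screen, with no overlap between the groups (log2 fold change 2.14, SE 0.11, n = 2 screens, adjusted p = 2.56e-07). The sgRNA of PRPF19 numbered 4 had 0 reads in the low library of screen 3. In summed reads high was 3.79 and 2.54 times low, and edgeR on these reads gave a log2 fold change of 1.66. CDC5L, which contacts the catalytic RNA core, gave 1.72, with an adjusted p of 1.11e-06. PLRG1, a propeller protein of the complex, gave 0.78, with an adjusted p of 5.04e-04. BCAS2 had 689 and 406 scaled reads in high, 418 and 369 in medium, 331 and 318 in low and 733 and 639.5 at T0. The medium library of screen 2 lay above the high library of screen 3, while both high libraries were above both low libraries (log2 fold change 0.66, SE 0.14, n = 2 screens, adjusted p = 0.0106).

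The 7 PRP19-associated genes were all higher in high than in low. AQR, the RNA helicase of the intron-binding complex, lies at chr15:34851782-34969742 on the minus strand and had 590.1 and 366 scaled reads in the high libraries of screens 2 and 3, 144 and 157 in the medium libraries, 115 and 105 in the low libraries and 1506 and 1226 at T0. Its high libraries were 5.12 and 3.48 times its low libraries, and low and medium lay close together (log2 fold change 1.99, SE 0.11, n = 2 screens, adjusted p = 3.12e-07). BUD31 gave 1.75. CRNKL1 gave 1.36, XAB2, which joins AQR in the intron-binding complex, gave 1.33, and SYF2 gave 1.20, with adjusted p-values of these 4 genes from 3.17e-06 to 3.05e-04. CWC22, which brings the exon junction complex to the spliceosome, gave 0.50 with an adjusted p of 0.0126. ISY1 had 603 and 438 scaled reads in high, 458 and 403 in medium, 481 and 442 in low and 913 and 871 at T0. The high library of screen 3 lay below both low libraries, although ISY1 passed (log2 fold change 0.46, SE 0.12, n = 2 screens, adjusted p = 0.0424). ISY1 passed in 7 of 16 alternatives and CWC22 likewise in 7, with adjusted p-values of up to 0.895 and 0.452.

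Among the helicases and second-step factors, 5 of 6 genes were higher in high than in low. DDX46, the ATPase that proofreads branch site recognition by U2 snRNP, lies at chr5:134758771-134855133 on the plus strand and had 1302 and 1419.7 scaled reads in the high libraries of screens 2 and 3, 969 and 711 in the medium libraries, 369 and 307 in the low libraries and 1236 and 1493 at T0. The low libraries were clearly the lowest, and the high libraries lay within the range of the T0 libraries (log2 fold change 2.00, SE 0.12, n = 2 screens, adjusted p = 6.16e-07). DHX38, which remodels the core between the catalytic steps, gave 1.97, and DHX16, which activates the spliceosome before branching, gave 1.33. With edgeR on summed reads they gave 1.03 and 1.38. SLU7, which positions the end of the intron for exon ligation, gave 0.77, and DHX15, which takes the spliceosome apart, gave 0.76. The adjusted p-values of these 4 genes ran from 1.17e-05 to 6.74e-04. With edgeR on summed reads SLU7 gave 0.54 with an adjusted p of 0.110, and DHX15 gave 0.77 with an adjusted p of 5.20e-10. SLU7 passed in 11 of 16 alternatives and DHX15 in 14. DHX8, which releases the spliced messenger RNA, had 213 and 128 scaled reads in the high libraries of screens 2 and 3, 182 and 165 in the medium libraries, 139.9 and 145 in the low libraries and 807 and 715 at T0. Its screens gave opposite signs, 1.32 and -0.51, and high and low overlapped (log2 fold change 0.41, SE 0.29, n = 2 screens, adjusted p = 0.56). The sgRNA of DHX8 numbered 4 had 0 reads in the low library of screen 2 and 6.97 scaled reads in the high library.

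**Figure D2:**
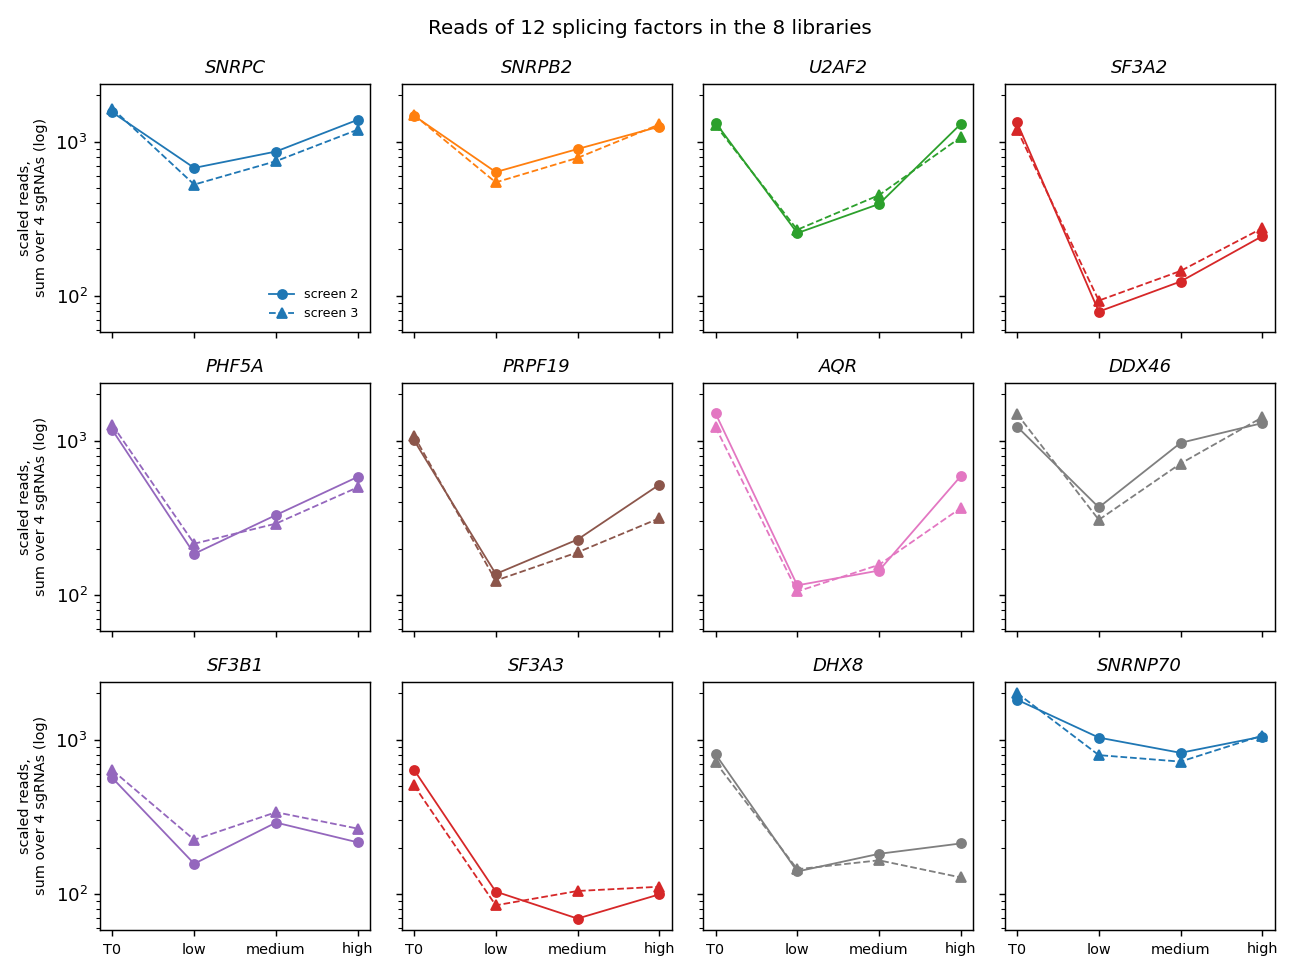
Scaled reads, summed over 4 sgRNAs and on a log axis, of 12 splicing factors at T0 and in the low, medium and high populations of screens 2 (solid line, circles) and 3 (dashed line, triangles). The gene with the largest high versus low change of each role fills the top rows and rises from low to high in both screens, while SF3B1 is highest in medium among its sorted populations, and SF3A3, DHX8 and SNRNP70 cross over between screens or stay level.

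Over the 34 genes, the high versus low log2 fold changes of screens 2 and 3 correlated at a Pearson r of 0.626 and a Spearman rho of 0.668. Over the 136 sgRNAs the Pearson r was 0.374 and the Spearman rho 0.492. These are descriptions over genes and sgRNAs that share the same libraries and normalization. Without a high or a low library, which leaves 1 library in that group, fewer of the 34 genes were called in high versus low. Fewer of all genes were called there as well. The median log2 fold change of the 34 genes was then 1.21 to 1.51. The medium libraries are not part of this comparison, so leaving 1 of them out returned the main fit, with its 30 genes. There were 16 alternatives, the 6 runs with a library left out and 10 others. In all of them 18 genes passed, among them U2AF2, PHF5A, PRPF19, AQR, DDX46, SNRPC and SNRPB2.

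Compared with the medium population, the shift was divided between fewer reads in low and more reads in high. In low versus medium, 11 of the 34 genes were lower and 0 were higher, while 1.54% of all genes tested were lower and 1.18% were higher. The median log2 fold change was -0.40, against 0.00 for all genes. In high versus medium, 15 of the 34 genes were higher and 0 were lower, while 1.7% of all genes were higher and 0.0966% were lower. Here the median was 0.86, against -0.01 for all genes. At an unadjusted p below 0.05, limma placed 19 genes lower and 0 higher in low, against 5.94% and 5.18% of all genes, and 29 higher and 1, SF3B1, lower in high, against 6.62% and 3.39%. Both high libraries were above both medium libraries for 27 of the 34 genes and for 17.8% of all genes, and both low libraries were below both medium libraries for 20 and for 20.4% of all genes. These comparisons share the medium libraries, so a low value in medium raises both of them. Screens 2 and 3 correlated over the 34 genes at a Pearson r of 0.133 in low versus medium and 0.482 in high versus medium.

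The genes called lower in low than in medium came from every role. DDX46 had the largest fall (log2 fold change -1.30, SE 0.11, n = 2 screens, adjusted p = 7.41e-04), and its low libraries were 0.381 and 0.431 times its medium libraries. PRPF19 fell by 1.02 on the log2 scale and BUD31, a small zinc-binding protein of the catalytic core, by 0.86, with adjusted p-values of 0.0173 and 0.00458. The fall of PRPF19 includes its sgRNA with 0 reads in the low library of screen 3. For this gene edgeR on summed reads gave -0.67, with an adjusted p of 0.0999. SF3B1 gave -0.76, SNRPB2 -0.75, SF3A2 -0.74, U2AF2 -0.74, SF3B3 -0.69, SF1 -0.65, SNRPC -0.63 and SF3A1 -0.62. The adjusted p of these 8 genes was at most 0.0434. The calls rest on both low libraries: without the low library of screen 2 there were 0, without that of screen 3 there were 0, and without the medium library of screen 2 there were 7, with the log2 fold change of all 11 genes still below 0. The share of all genes called lower was 0.225%, 0.0590% and 1.30% in these 3 settings. SF3A3 differed most between screens, with 1.05 and -1.63.

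By the mean over sgRNAs, the genes called higher in high than in medium were led by DHX38 (log2 fold change 1.78, SE 0.21, n = 2 screens, adjusted p = 0.0191). In summed reads its high libraries were 2.24 and 1.94 times its medium libraries. There edgeR gave 1.08 for DHX38, below the values of AQR, U2AF2, CDC5L and SNRPA1. AQR followed (log2 fold change 1.73, SE 0.10, n = 2 screens, adjusted p = 0.00578), and its high libraries were 4.1 and 2.34 times its medium libraries. The sgRNA of AQR numbered 3 had 0 reads in the medium library of screen 3, and edgeR on summed reads gave 1.66 for the gene. CDC5L gave 1.59, U2AF2 1.53, SNRPA1 1.47, SF3B4 1.23, SF3B3 1.15 and PRPF19 1.12. SF1 gave 0.98, DHX15 0.97, XAB2 0.92, SF3A2 0.87, DHX16 0.84, SYF2 0.81 and SNRPB2 0.80. Adjusted p-values of these 15 genes ran from 0.00578 to 0.0401. With fold changes centered on the sgRNAs without a target, which moved the median of all genes by 0.0920 on the log2 scale, 28 of the 34 genes were called higher, against 4.66% of all genes. edgeR on summed reads called 23, against 3.55% of all genes.

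**Figure D3:**
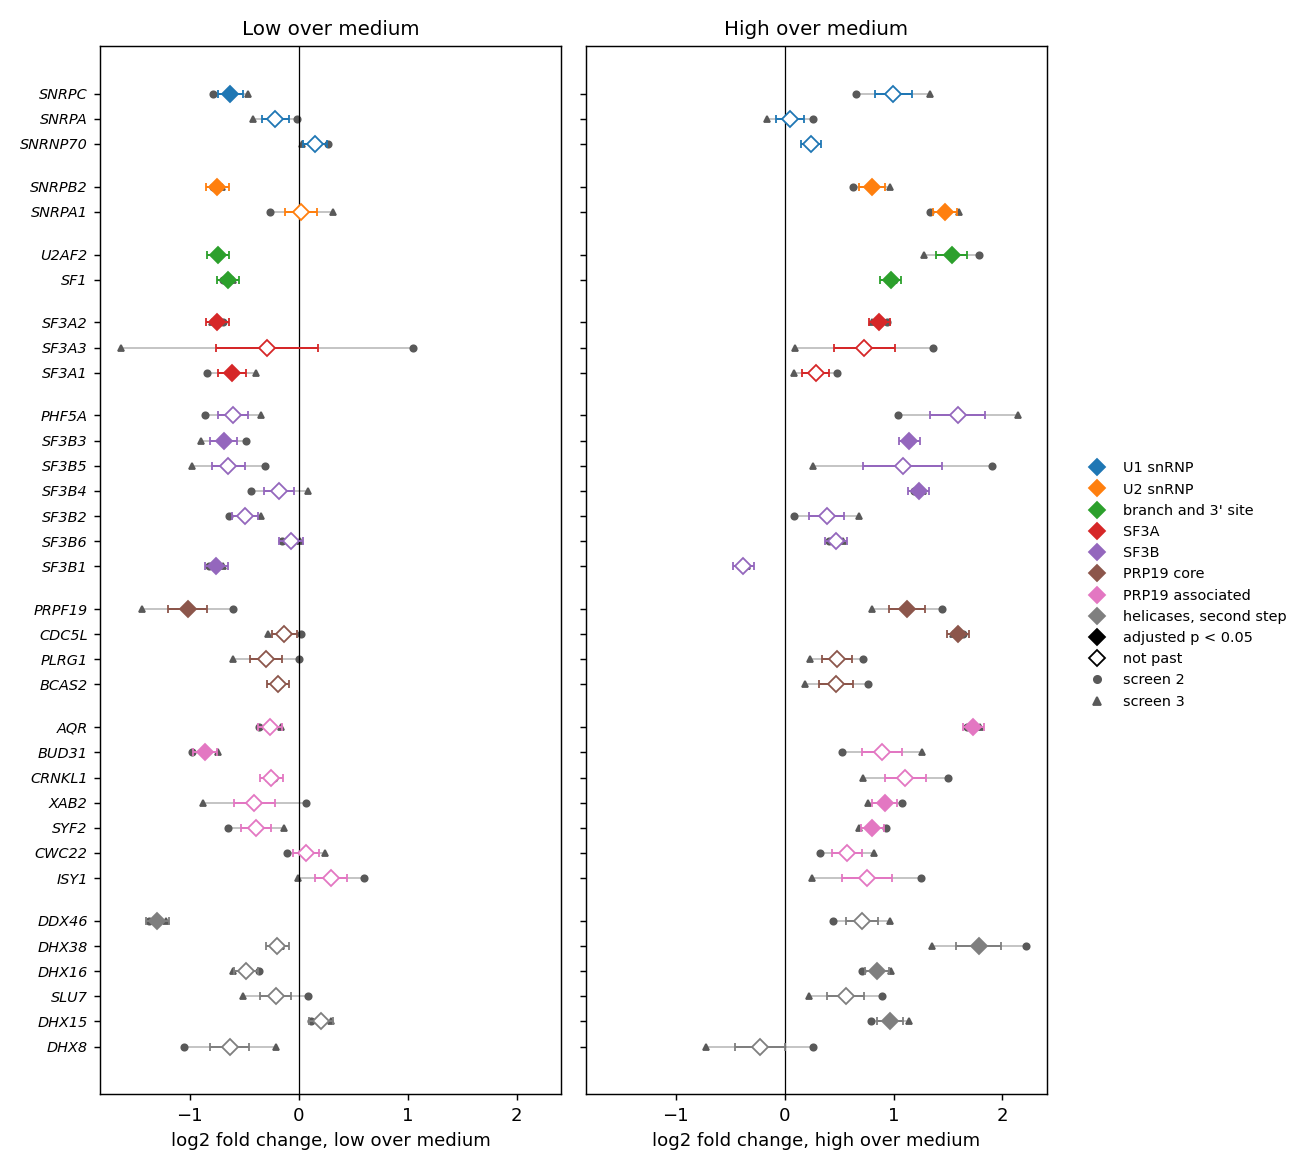
Log2 fold change of low over medium (left) and of high over medium (right) for the 34 splicing factors, grouped by role, with the same symbols as in the plot of high over low. Most genes lie left of 0 in low over medium and right of 0 in high over medium. DDX46 lies farthest left and DHX38 farthest right, and SF3B1 and DHX8 lie left of 0 in both.

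Of the 30 genes called in high versus low, 6 were also called on both sides of medium, namely PRPF19, SF1, SF3A2, SF3B3, SNRPB2 and U2AF2. Another 4, BUD31, DDX46, SF3A1 and SNRPC, were called lower in low and not called higher in high. A further 9, AQR, CDC5L, DHX15, DHX16, DHX38, SF3B4, SNRPA1, SYF2 and XAB2, were called higher in high and not called lower in low. The remaining 11 passed on neither side alone. Whether the shifts on the sides of medium were unequal was tested as the sum of low and high minus 2 times medium, on the log2 scale. In this test limma called 0 of the 34 genes in either direction, against 0.0376% of all genes higher and 0% lower, so no gene is shown to be shifted on 1 side only. At an unadjusted p below 0.05 there were 12 genes above 0 and 3 below, against 4.39% and 2.47% of all genes. edgeR on summed reads called 1 above 0, against 0.773% of all genes, and the other alternatives called 0 to 7. The 7 called with centering on the sgRNAs without a target were SNRPA1, SF3B4, CDC5L, AQR, DHX38 and DHX15 above 0 and SF3B1 below 0, against 0.606% and 0.0697% of all genes.

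The values of this sum varied over the genes, and differences between genes were not tested. Over the 34 genes, screens 2 and 3 correlated at a Pearson r of 0.160, with a median absolute difference of 0.64. DHX38 gave 1.59, SNRPA1 1.49, AQR 1.47 and CDC5L 1.46, with adjusted p-values of 0.125, 0.133, 0.0975 and 0.101. DHX15 gave 1.17 with an adjusted p of 0.144, and edgeR on summed reads called it with an adjusted p of 0.000162, while its adjusted p ranged up to 0.498 over 16 alternatives. SF3B1 had the lowest value (log2 fold change -1.14, SE 0.18, n = 2 screens, adjusted p = 0.133). Its high libraries were 0.744 and 0.783 times its medium libraries, its low libraries 0.54 and 0.662 times, and its high versus medium log2 fold change was -0.38 with an adjusted p of 0.225. SF3B1 passed in 4 of 16 alternatives, and its adjusted p ranged from 0.00765 to 0.582 over them. DHX8 also had a value below 0 (log2 fold change -0.86, SE 0.17, n = 2 screens, adjusted p = 0.217).

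Single sgRNAs were tested on the deposited counts with edgeR, and 134 of the 136 had enough reads. In high versus low, 56 were higher and 0 were lower, against 2.95% of all sgRNAs tested that were higher and 1.55% that were lower. Of the 134, 124 had a log2 fold change above 0, and the median was 1.05, against -0.01 for all sgRNAs. All 4 sgRNAs lay above 0 for 26 of the 34 genes, as the mean of both screens. The share of all genes for this count, and the shares of all sgRNAs with a library left out, are not given here. In low versus medium 10 sgRNAs were lower and 0 higher, against 0.755% and 0.645% of all sgRNAs. In high versus medium 25 were higher and 0 lower, against 1.13% and 0.121% of all sgRNAs. At an unadjusted p below 0.05, edgeR placed 88 sgRNAs higher and 0 lower in high versus low, against 7.04% and 5.85% of all sgRNAs. It placed 27 lower and 2 higher in low versus medium, against 4.41% and 4.15%, and 72 higher and 0 lower in high versus medium, against 5.26% and 3.65%. DESeq2 called 43 sgRNAs higher, 4 lower and 11 higher in these comparisons and none the other way, against 2.09%, 0.393% and 0.633% of all sgRNAs in the same directions. In high versus low, leaving out the high library of screen 2 left 25 sgRNAs, the low library of screen 2 left 27, and the low library of screen 3 left 35. In low versus medium, 4 sgRNAs were left without the medium library of screen 2, 6 without the low library of screen 2, 5 without the medium library of screen 3 and 5 without the low library of screen 3. In high versus medium, 8 were left without the high library of screen 2, 10 without the medium library of screen 2, 7 without the high library of screen 3 and 11 without the medium library of screen 3.

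All 4 sgRNAs were called higher for U2AF2, SNRPB2 and DDX46. The sgRNA of U2AF2 numbered 1 in the order of the table had 299.8 and 173 scaled reads in high, 44.6 and 44.8 in medium, 23.5 and 16.4 in low and 387 and 406 at T0 (log2 fold change 3.54, adjusted p = 1.61e-15). The sgRNA of U2AF2 with the smallest change, numbered 2, had 135 and 109 in high and 42.7 and 55.9 in low (log2 fold change 1.33, adjusted p = 0.0332). DDX46 was the gene with all 4 called lower in low than in medium, at log2 fold changes of -1.11 to -1.45. The sequences and cut sites of the sgRNAs were not analyzed here.

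Other genes rested on some of their sgRNAs. For SNRPC, sgRNA 2 had 279 and 148 scaled reads in high, 58.7 and 20.8 in low and 397 and 460.5 at T0 (log2 fold change 2.48, adjusted p = 7.49e-10). Its sgRNA 3 had 805 and 743 in high, 529 and 419 in low and 701 and 613 at T0 (log2 fold change 0.71, adjusted p = 5.25e-05). The reads of sgRNA 2 in the sorted cells were far below T0 and those of sgRNA 3 were near it. SNRPA had 1 sgRNA called, numbered 3, with 586 and 534 in high and 366 and 329 in low (log2 fold change 0.69, adjusted p = 0.00162), and it was also the sgRNA of SNRPA with the lowest log2 fold change since T0, -0.38. AQR had 2 sgRNAs called, and its sgRNA 4 had 224 and 111 in high, 49.1 and 52.6 in low and 112 and 78.8 at T0 (log2 fold change 1.70, adjusted p = 3.92e-04), with a log2 fold change since T0 of -0.13. No sgRNA was called for SNRNP70, SF3A3, SF3B1, SF3B6, ISY1, CWC22, SLU7 and DHX8.

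**Figure D4:**
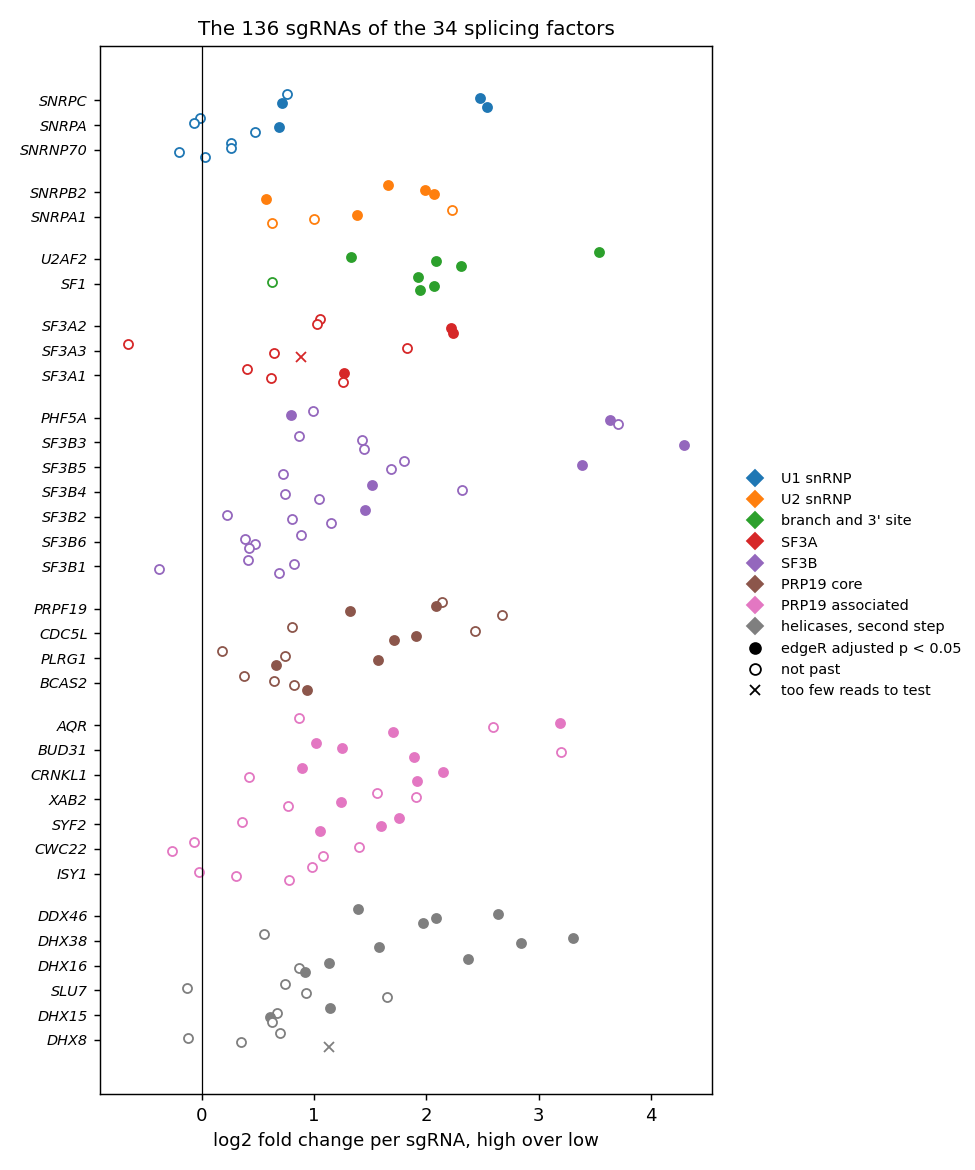
Log2 fold change of high over low for each of the 136 sgRNAs, by gene and role. Filled circles passed the edgeR test, open circles did not, and the crosses mark 2 sgRNAs with too few reads to test, shown at the mean of their within-screen fold changes. U2AF2, SNRPB2 and DDX46 have 4 filled circles each, and most open circles still lie right of 0.

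The sorted cells were also compared with T0, which the labels call a day 0 control. How T0 was taken is not described in the sources used here. A fall in reads since T0 is called a loss below. The pool before sorting was rebuilt as 0.25 of the scaled reads of high, 0.5 of medium and 0.25 of low, following the stated gates. Reads of 33 of the 34 genes were lower in the pool than at T0 and those of 0 were higher by limma, while 8.35% of all genes were lower and 2.54% were higher. The same numbers passed at an unadjusted p below 0.05, against 11.8% and 11.1% of all genes. The median log2 fold change was -1.64, against 0.04 for all genes, and the screens correlated over the 34 genes at r = 0.915. The pool held a median of 36.8% of the T0 reads in screen 2 and 33.4% in screen 3. Both pools lay below both T0 libraries for the same number of genes, 33, and for 21.3% of all genes.

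The deepest losses were in SF3B and SF3A. SF3B5 kept 10.8% and 7.75% of its T0 reads in screens 2 and 3 (log2 fold change -3.51, SE 0.11, n = 2 screens, adjusted p = 1.89e-18). SF3B3, SF3A2 and SF3A3 followed with -3.15, -2.98 and -2.84. SNRPA1, PHF5A, CDC5L, DHX8, PRPF19 and SF3B4 ranged from -2.59 to -2.36. The smallest falls that passed were those of DDX46, -0.68, SF1, -0.70, BCAS2, -0.73, DHX16, -0.75, and SNRPB2, -0.78, with adjusted p-values of at most 2.24e-05. SNRPA was the gene that did not pass (log2 fold change -0.03, SE 0.10, n = 2 screens, adjusted p = 0.867), and its pool held 100% and 90.2% of the T0 reads.

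Loss since T0 and the shift to high labeling were set side by side, with the caution that the pool includes the high and low libraries. A fall of at least 1 on the log2 scale was seen for 26 of the 34 genes, and 23 of these 26 were higher in high than in low, with a median of 1.38. Of the 8 genes without such a fall, 7 were higher, with a median of 1.26. Over all genes, 570 fell by at least 1, and 54.2% of them were higher in high than in low, 16.0% were lower and their median was 0.59. DDX46 lost little and shifted much (-0.68 and 2.00), SNRNP70 fell by 1.32 and gave 0.09, and DHX8 fell by 2.46 and gave 0.41. The sgRNAs of SF3A3 and SNRPA1 had the fewest reads, with means of 53.7 and 65.5 scaled reads over the 8 libraries, and those of DHX16 had the most, 428. Those of SF3B5, with the deepest fall, had 131, near the 119.8 of SF1, which fell by 0.70. These means include the T0 reads. In the pool, scaled reads summed over the sgRNAs were 174 and 126 for SF3B5 in screens 2 and 3, against 415 and 395 for SF1. SF3B3, with 79.6 and 107, was about as low there as SF3A3, with 85.3 and 101. The part of growth or of reporter level in the labeling ratio was not tested.

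**Figure D5:**
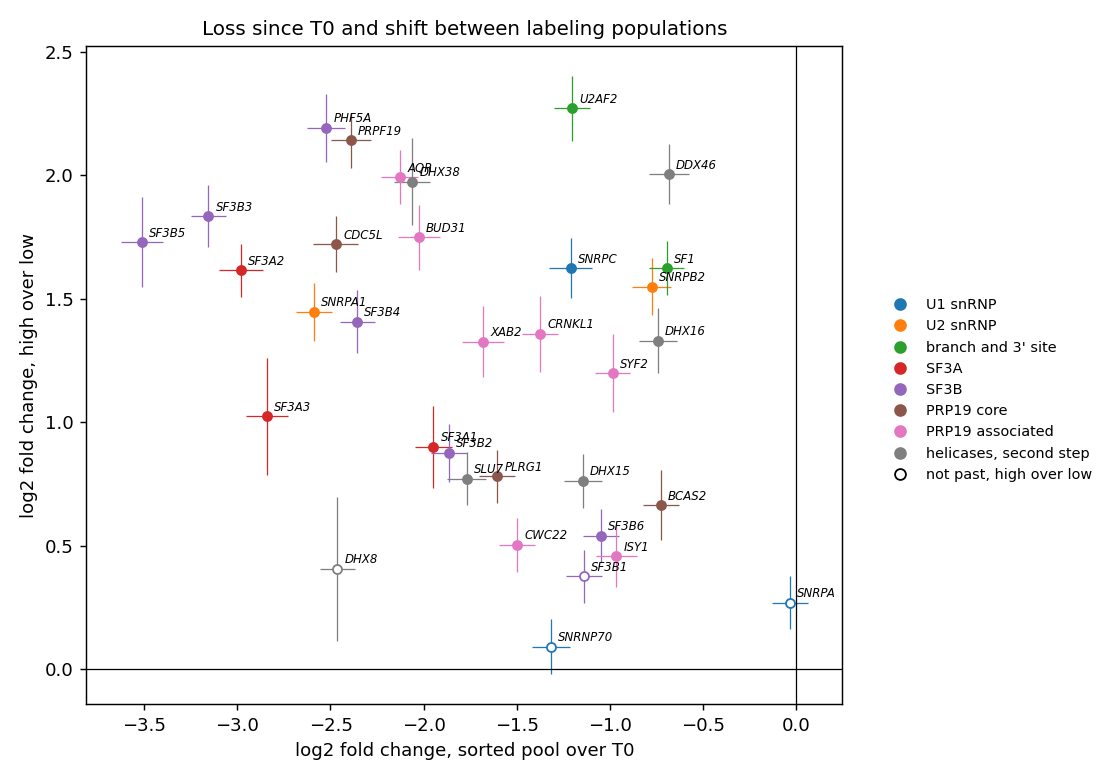
Log2 fold change of the sorted pool over T0 (x axis) and of high over low (y axis) for the 34 splicing factors, with limma SE bars and colors by role. Open circles did not pass in high over low. SNRPA is the gene near 0 on the x axis, U2AF2 is highest on the y axis, and genes with falls of less than 1, such as DDX46, reach 2.00 on the y axis.

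Other parts of the spliceosome were read as counts and medians beside the same 5.25% of all genes higher in high than in low. All 7 Sm core genes, whose proteins form the ring on each snRNP, were higher, with a median log2 fold change of 1.23, led by SNRPG (log2 fold change 2.52, SE 0.13, adjusted p = 2.82e-07) and SNRPF (log2 fold change 1.69, SE 0.18, adjusted p = 5.06e-05). Of 17 tri-snRNP genes, 15 were higher and 0 lower, with a median of 1.50, led by TXNL4A (log2 fold change 3.78, SE 0.28, adjusted p = 2.91e-06) and SART3 (log2 fold change 3.08, SE 0.15, adjusted p = 1.85e-07). Of 51 other spliceosomal genes, 25 were higher and 0 lower, with a median of 0.44, led by U2AF1 (log2 fold change 2.66, SE 0.14, adjusted p = 2.69e-07), the partner of U2AF2, and SMU1 (log2 fold change 2.29, SE 0.27, adjusted p = 1.48e-04). Of 10 genes of the minor spliceosome, which removes a rare class of introns, 6 were higher and 0 lower, with a median of 0.43, led by RNPC3 (log2 fold change 1.08, SE 0.11, adjusted p = 3.27e-05) and SNRNP48 (log2 fold change 0.77, SE 0.11, adjusted p = 5.15e-04). Differences between these lists and the 34 genes were not tested.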

How the data were processed

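Cassettes of sgRNAs in genomic DNA of RKO cells were sequenced in 8 libraries, the high, medium, low and T0 groups of 2 screens. Per the labels and the methods, the authors counted reads with MAGeCK, and the deposited values are raw counts per sgRNA in 4 lanes of each library. Aligner and genome build are not given in the sources used here. A further 4 columns matched no sample and were not used.

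Lanes were summed, as they varied little more than counting alone would give (chi-square over its degrees of freedom, 1.02 to 1.03). Libraries held 23369720 to 31777138 reads. Reads copied by PCR carry no molecular identifier, so a count is not a number of cells. The p-values measure the spread between 2 screens, which limma moderates toward a spread shared by all entries. The prior degrees of freedom of limma were 10.2 in high versus low. Each library was scaled to the mean total. A pseudocount of 1 read preceded log2, and fold changes formed within a screen were averaged over sgRNAs and tested against 0 with limma 3.58.1 (R 4.3.3), following the order of steps in the study's methods, with Benjamini-Hochberg adjustment over 18659 entries, 21 of them controls. Shares are over 18638 genes. No core-essential genes were removed. edgeR 4.0.16 tested sgRNAs one by one on the deposited counts (quasi-likelihood, TMM, filterByExpr, 6 sorted libraries, screen as a block). Screens are stated to be independent, so a number joins populations sorted from 1 culture, and same-numbered libraries deviated together at r = 0.0903 to 0.129. The code was tested on simulated data.

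The 34 genes, their roles and the other lists were chosen with earlier results of these data known. Every gene is named with its high versus low change. Reads in every library are given for the gene with the largest and the smallest change of each role and for genes that did not pass, and SF3A3 was added after its values were seen. Alternatives were a pseudocount of 5, sgRNAs with at least 50 reads, TMM, median-of-ratios, centering on the 278 sgRNAs without a target, the median over sgRNAs, a trended prior spread, limma on libraries with and without a replicate block, a weighted mean of log2 values for the pool, edgeR on summed counts, DESeq2 1.42.0 for sgRNAs, and leaving out each library. Gene positions are from GENCODE 44 (GRCh38).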

Additional observations from a re-analysis of the deposited data

How the results depend on the processing

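The fall since T0 was called for 29 to 34 of the 34 genes under every alternative, and the high versus low shift for 26 to 31 unless a library was left out. Leaving out 1 library gave 18 to 30 genes in high versus low, 0 to 11 in low versus medium, 15 to 22 in high versus medium and 0 to 2 in the asymmetry about medium, and 25 to 56, 4 to 8 and 7 to 26 sgRNAs in the 3 sorted comparisons. For genes, a sorted library that a comparison does not use leaves its fit unchanged, and such runs are within these ranges. With no library left out, 3.91% to 6.84% of all genes were higher in high versus low and 7.16% to 33.4% were lower against T0. In low versus medium the count of 11 genes became 7 with a trended prior spread, where 2.39% of all genes were lower. In high versus medium the count of 15 became 28 with centering on the sgRNAs without a target and 23 with edgeR on summed reads. In these 2 settings 4.66% and 3.55% of all genes were higher. The asymmetry, with 0 genes called, gave 6 with a pseudocount of 5, 5 with sgRNAs of at least 50 reads, 7 with centering, 7 with the median over sgRNAs, 1 with a trended prior spread and 1 with edgeR on summed reads. The calls over all genes rose as well. In these settings in turn 0.397%, 0.499%, 0.606%, 1.12%, 0.247% and 0.773% of all genes lay above 0, against 0.0376% in the main fit. Those below 0 were 0.0376% to 0.172%, against 0%. DESeq2 called 4 sgRNAs in low versus medium and 11 in high versus medium, against 10 and 25.

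Fold changes within a screen already carry the replicate block. With libraries as units, the replicate block gave 27, 9 and 18 genes in high versus low, low versus medium and high versus medium, and no replicate block gave 26, 3 and 10. In the same directions 4.45%, 1.18% and 2.08% of all genes were called with the block, and 3.91%, 0.714% and 1.38% without it. The sgRNA test with no replicate block called 47, 6 and 12 sgRNAs. The shares of all sgRNAs in this setting are not given here, so these counts cannot be set against them. Centering moved the median of all genes by 0.112 in high versus low and by -0.238 against T0, and the median of the 34 genes relative to it was 1.35 and -1.69.

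Among the genes followed through the alternatives, directions turned only for genes that had not passed in the comparison concerned. The genes followed were all 34 in high versus low and against T0. They were 14 in low versus medium, 19 in high versus medium and 8 in the asymmetry. Some genes not followed had screens of opposite sign, such as SNRPA in high versus medium (0.26 and -0.16) and SNRPA1 in low versus medium (-0.27 and 0.31). With a library left out, SNRNP70 gave log2 fold changes of -0.018 to 0.20 in high versus low, and DHX8 gave -0.30 to 1.11 there, -1.30 to 0.034 in low versus medium and -0.93 to 0.47 in high versus medium. SF3A3 gave 0.14 in low versus medium with edgeR on summed reads and -1.31 to 0.73 with a library left out, and -0.25 to 1.72 in high versus medium. SNRPA against T0 gave 0.056 with the median over sgRNAs and -0.19 to 0.090 with a library left out. The cause of these changes was not tested. Mean depth over all libraries, T0 included, was lowest for SF3A3, with 53.7 scaled reads per sgRNA.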

Other observations

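The library also holds an entry named AQR by its symbol, with 5 sgRNAs among the control entries, which is separate from the 4 sgRNAs of AQR described above. This entry had a mean of 479 scaled reads per sgRNA over the 8 libraries. Its log2 fold change was 0.15 in high versus low, with an adjusted p of 0.559 by limma, and -0.07 in the sorted pool versus T0, with an adjusted p of 0.729. The 4 sgRNAs of the gene entry gave 1.99 and -2.13 in the same comparisons. The difference between the entries was not tested, and the target of the control entry was not analyzed here.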
